A study of Mus musculus with 6 samples.

Results

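The genes examined were 10 components of TGF-β, activin and BMP signalling, taken by symbol from the 32285 genes of the UMI matrix. They were the TGF-β ligands Tgfb1, Tgfb2 and Tgfb3, the activin βA subunit Inhba, the ligand Bmp4, the secreted glycoprotein Fstl1, the receptors Tgfbr1, Tgfbr2 and Acvrl1 and the co-receptor Eng, and all 10 were found, each under 1 gene identifier. Live non-neuronal cells had been taken from the cortex of male RGS5::GFP heterozygous mice, 8 to 12 weeks old, 1, 12 or 24 h after the middle cerebral artery had been permanently occluded, from the ipsilateral tissue (IPSI) or from the corresponding contralateral tissue (Contra), giving 6 groups with 1 10× 3′ library each. In every group GFP replaced 1 allele of Rgs5, a gene of vascular mural cells, and the contralateral cortex also came from animals with the occlusion, while the labels give the 12 h libraries another kit (v3.1 dual index) than the 1 and 24 h libraries (v3 single index). The matrix numbers its libraries 1 to 6 and no source used here ties a number to a group, so levels are given per library number and no comparison of hemispheres or times was made. Every group was 1 library and cells are not replicates, so no p-value was computed, and the 95% intervals cover counting error alone.

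TGF-β and activin ligands bind a pair of type II receptors, which recruit and phosphorylate type I receptors such as Tgfbr1, and these in turn phosphorylate Smad2 and Smad3. BMPs signal mainly through Smad1, Smad5 and Smad9, and in endothelium the type I receptor Acvrl1 (ALK1) with the co-receptor endoglin, encoded by Eng, reads BMP9 and BMP10 from the blood. TGF-β is secreted in a latent complex that matrix proteins hold and integrins open. In brain, TGF-β signalling through Tgfbr1 and Tgfbr2 is required for the mature microglial state, and mutations of ACVRL1 and ENG cause hereditary haemorrhagic telangiectasia, a disease of arteriovenous malformations.

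After filtering, 17323 cells were analysed, between 1220 and 5869 per library, with a median of between 5052 and 5659 UMIs per cell. They fell into 14 classes named from marker lists, each written here with the suffix -like, and 12 classes held at least 50 cells. The cell types listed in the labels were all present: all 8 microglia markers, all 8 endothelial markers, all 8 pericyte markers and all 7 smooth muscle markers were highest in the class of that name. The perivascular macrophage-like class was led by class II antigen genes and the T lymphocyte-like class held cytotoxic lymphocyte genes, so neither name describes 1 pure type, and the choroid plexus-like class (22 cells) also carried ependymal markers. Fibroblast-like cells numbered 31, with under 20 in every library. Between 5 and 15 cells per library (0.183% to 0.574%) carried a barcode that was also a cell of another library. RNA outside cells was measured in barcodes with 1 to 50 UMIs, where Tgfbr1 stood at 229 CPM, Tgfb1 at 95.3, Tgfbr2 at 64.7, Eng at 46.1 and Acvrl1 at 43.8, and each of the other 5 genes was under 12 CPM. Levels are in CPM, the UMIs of a gene per 1000000 UMIs, both summed over the cells named.

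Start-site sequences are shown for 4 genes whose levels separated the cell classes: Tgfb2 (smooth muscle- and endothelial-like), Tgfbr1 (microglia-like), Inhba (macrophage-like) and Eng (endothelial-like). RefSeq promoters of GRCm38.p6 were matched for 8 of the 10 symbols, and the first listed start of Tgfbr1 is shown. Each sequence is the 250 bases before the start of transcription, 5′ to 3′ on the gene's strand, and capitals mark matches on either strand to ACTTCC (the core bound by ETS factors), GGGCGG (a GC box), CAGAC (a box bound by Smads), TATAAA or CCAAT.
Tgfb2, chr1:186705990-186706239, minus strand: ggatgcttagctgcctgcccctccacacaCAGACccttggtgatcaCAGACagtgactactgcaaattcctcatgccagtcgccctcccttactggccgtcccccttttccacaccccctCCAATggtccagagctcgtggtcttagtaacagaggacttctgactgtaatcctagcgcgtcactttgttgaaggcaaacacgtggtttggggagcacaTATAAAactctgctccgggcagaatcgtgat
Tgfbr1, chr4:47352972-47353221, plus strand: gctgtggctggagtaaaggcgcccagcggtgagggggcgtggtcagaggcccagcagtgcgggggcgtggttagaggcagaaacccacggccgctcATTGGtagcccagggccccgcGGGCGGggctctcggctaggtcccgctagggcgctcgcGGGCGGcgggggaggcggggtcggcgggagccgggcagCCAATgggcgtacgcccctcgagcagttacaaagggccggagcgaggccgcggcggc
Inhba, chr13:16011601-16011850, plus strand: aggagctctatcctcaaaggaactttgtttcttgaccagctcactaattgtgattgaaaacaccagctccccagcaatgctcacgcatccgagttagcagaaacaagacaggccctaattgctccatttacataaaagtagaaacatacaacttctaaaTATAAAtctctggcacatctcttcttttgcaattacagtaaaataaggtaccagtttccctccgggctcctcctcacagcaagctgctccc
Eng, chr2:32646345-32646594, plus strand: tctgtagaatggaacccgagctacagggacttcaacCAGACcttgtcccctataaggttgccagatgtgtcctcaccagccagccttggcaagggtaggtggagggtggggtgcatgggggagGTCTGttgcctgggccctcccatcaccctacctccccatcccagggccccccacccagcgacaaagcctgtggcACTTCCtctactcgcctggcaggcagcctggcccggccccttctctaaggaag
The Tgfb2 window held TATAAA 31 bases before the start, CCAAT and 2 CAGAC boxes, and the Inhba window held a TATAAA match 91 bases before it. Of all 32851 promoters in the table, 12.4% held TATAAA, 33.8% CCAAT and 42.2% CAGAC within the same length. The Tgfbr1 window, with a GC content of 74.8%, held 2 GC boxes (32.7% of all promoters had at least 1) and 2 CCAAT matches. The Eng window held 1 ACTTCC match 53 bases before the start (19.7% of all promoters) and 2 CAGAC boxes. These matches describe the letters and are no evidence that a factor bound there.

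Across cell classes, the 10 genes differed in where they were highest. Microglia-like cells held most of the Tgfbr1, endothelial-like cells most of the Acvrl1 and Eng, and monocyte-derived macrophage-like cells most of the Inhba. Levels were highest in smooth muscle-like cells for Tgfb3, and in pericyte- and fibroblast-like cells for Fstl1 and Bmp4. Smooth muscle-like cells also had the highest pooled Tgfb2 (139 CPM), but they led 3 of the 4 libraries with at least 20 of them. Arterial-like endothelial subclusters, described below, had 214 CPM of Tgfb2. Among the 12 classes of at least 50 cells, 6 of the 10 genes (Tgfb3, Tgfbr1, Inhba, Bmp4, Acvrl1 and Eng) were at least 2 times as high in their leading class as in the next, against 30.4% of all 15265 genes with at least 50 UMIs there.

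**Figure D1:**
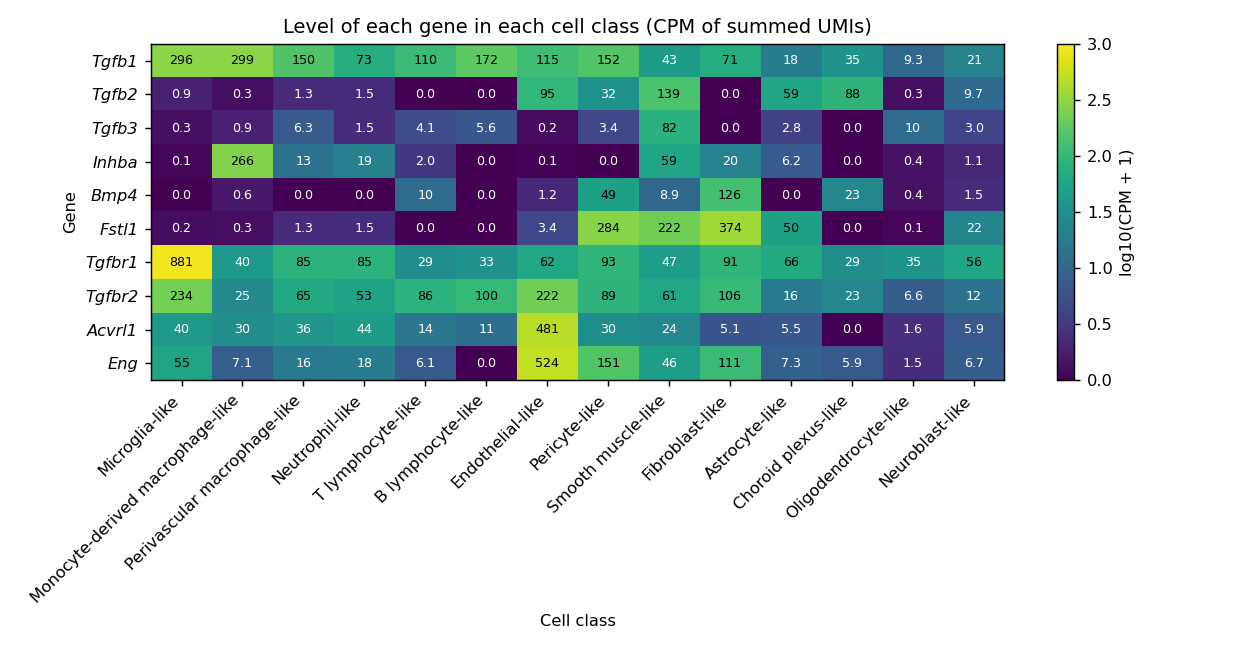
Level of each gene (rows) in each cell class (columns), as CPM of UMIs summed over all cells of the class, with colour on a log10(CPM + 1) scale and the CPM printed in each cell. Tgfbr1 in microglia-like cells (881 CPM) and Eng and Acvrl1 in endothelial-like cells (524 and 481 CPM) stand out. Fstl1 is brightest in the fibroblast-, pericyte- and smooth muscle-like columns. Bmp4 is brightest in the fibroblast- and pericyte-like columns (126 and 49.1 CPM), with 8.91 CPM in smooth muscle-like cells. The smooth muscle-like subcluster described below held 0 Bmp4 UMIs.

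Tgfb1 (ENSMUSG00000002603, chr7:25687002-25705077, plus strand), the most widely used of the TGF-β ligands, was found at 299 CPM (95% interval 281 to 318) in monocyte-derived macrophage-like cells and at 296 CPM (95% interval 291 to 301) in microglia-like cells, a pooled ratio of 1.01 (95% interval 0.946 to 1.08). Within libraries 4 and 6, which alone had at least 20 of these macrophages, they had 343 and 276 CPM and microglia-like cells 263 and 228, so that the macrophages were higher in both. Microglia-like cells outside the activated-like subclusters described below had 302 and 315.5 CPM in these libraries. Against those cells the macrophages were higher in library 4 and lower in library 6. B lymphocyte-like (172 CPM), pericyte-like (152) and perivascular macrophage-like cells (149.9) followed without a difference between neighbours, and then endothelial-like (115) and T lymphocyte-like cells (110.2). Smooth muscle-like cells had 42.9 CPM, astrocyte-like 17.6 and oligodendrocyte-like 9.35. In libraries 1 to 6, microglia-like cells had 299, 338, 339.6, 263, 301 and 228 CPM, with library 6 lowest and library 4 next. Pericyte-like cells spread further, with 69.1, 158, 107, 253, 66.8 and 246 CPM in the same order, highest in libraries 4 and 6 and lowest in library 5. In this class 63.7% of genes had a highest library at least 2 times the lowest. Pericyte-like cells held 536 Tgfb1 UMIs and smooth muscle-like cells 77. Of both together, 105 lay in mural subcluster 7, whose 47 cells carried microglial markers and of which 57.4% were called doublets. The 58 response pericytes described below held 121, and pericytes outside the response and mixed subclusters had 115 CPM. A Tgfb1 UMI was seen in 74.1% of microglia-like cells (median depth 5150 UMIs) and in 4.35% of the deeper oligodendrocyte-like cells (median 8871), or in 25.5% and 0.791% when each cell was thinned to 1000 UMIs.

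Tgfb2 (ENSMUSG00000039239, chr1:186622792-186705989, minus strand) had another distribution. It was at 139 CPM (95% interval 123 to 158) in smooth muscle-like cells and 95.3 CPM (95% interval 89.9 to 101) in endothelial-like cells, a ratio of 1.46 (95% interval 1.27 to 1.68). By library, smooth muscle-like cells of libraries 3, 4, 5 and 6, the only ones with at least 20 such cells, had 119.6, 184, 129 and 156 CPM, and endothelial-like cells of libraries 1 to 6 had 61.7, 79.7, 66.1, 52.6, 185 and 82.6. Smooth muscle-like cells were therefore higher in libraries 3, 4 and 6, and endothelial-like cells in library 5. The highest endothelial-like library was 3.51 times the lowest, a spread of at least 2 times that 52.3% of genes showed in this class. Astrocyte-like cells (58.9 CPM) and pericyte-like cells (32.4) came after, while microglia-like cells had 40 UMIs among 8122 cells (0.889 CPM). The choroid plexus-like value of 87.8 CPM rested on 15 UMIs and differed from neither neighbour in the order.

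Tgfb3 (ENSMUSG00000021253, chr12:86056745-86079041, minus strand) was concentrated in smooth muscle-like cells, at 82.4 CPM (95% interval 69.7 to 96.9), against 10.1 CPM in the next class, oligodendrocyte-like cells, with a ratio of 8.20 (95% interval 6.65 to 10.1). Libraries 3, 4, 5 and 6 gave 69.6, 129, 71.3 and 82.9 CPM in smooth muscle-like cells, each above every other class of at least 20 cells in the same library. Endothelial-like cells held 3 UMIs of Tgfb3 in 2727 cells, and microglia-like cells 15 in 8122. A UMI was seen in 32.2% of smooth muscle-like cells and 0.110% of endothelial-like cells (medians of 6737 and 4029 UMIs), and after thinning in 5.88% and 0.0367%.

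Inhba (ENSMUSG00000041324, chr13:16011851-16031621, plus strand), whose product dimerizes to activin A, was highest in monocyte-derived macrophage-like cells, at 266 CPM (95% interval 249 to 284), against 59.1 CPM (95% interval 48.3 to 71.4) in smooth muscle-like cells, a ratio of 4.51 (95% interval 3.68 to 5.57). Libraries 4 and 6, which alone had at least 20 of these macrophages, gave 429 and 196 CPM, a ratio of 2.19, and a spread of at least 2 times was seen in 15.6% of genes of this class. The UMIs were held by few cells: 84 of 375 macrophage-like cells had any, and the 31 with at least 10 UMIs carried 82.7% of the 900, with 62 in the highest. In smooth muscle-like cells the UMIs were spread more evenly, with 56 of 255 cells positive and at most 7 in 1 cell, and libraries 3, 4, 5 and 6 gave 41.3, 46.0, 88.6 and 52.8 CPM. Perivascular macrophage-like cells had 12.6 CPM, of which 83.3% lay in 2 cells. Microglia-like cells had 5 UMIs, endothelial-like cells 1, and pericyte-like cells 0, which allows up to 0.852 CPM.

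Bmp4 (ENSMUSG00000021835, chr14:46383520-46390669, minus strand), a BMP ligand, was sparse, with 225 UMIs in the classes of at least 50 cells. Pericyte-like cells had 49.1 CPM (95% interval 42.1 to 57.0) and led every library among classes of at least 20 cells, with 43.6, 20.2, 65.5, 39.9, 61.4 and 25.3 CPM in libraries 1 to 6. The 31 fibroblast-like cells had 126 CPM (95% interval 81.8 to 187) from 25 UMIs, 9 of them in 1 cell, a ratio to pericyte-like cells of 2.57 (95% interval 1.62 to 3.93) that moved to 1.54 without library 2, 4.03 without library 6 and 6.13 with each cell thinned to 1000 UMIs. Smooth muscle-like cells had 8.91 CPM from 16 UMIs, with 0 UMIs in the 169 cells of the smooth muscle-like subcluster described below. Endothelial-like cells had 1.23 CPM, microglia-like cells 1 UMI and astrocyte-like cells 0, which allows up to 0.415 CPM. The T lymphocyte-like value of 10.2 CPM came from 5 UMIs in 1 cell.

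Fstl1 (ENSMUSG00000022816, chr16:37776873-37836514, plus strand), a secreted protein of the follistatin-like family that binds BMP ligands, was highest in fibroblast-like and mural cells. It was at 374 CPM (95% interval 294 to 469.9) in fibroblast-like, 284 CPM (95% interval 267 to 302) in pericyte-like and 222 CPM (95% interval 200.5 to 245) in smooth muscle-like cells. The ratio of fibroblast- to pericyte-like cells was 1.32 (95% interval 1.03 to 1.67) and that of pericyte- to smooth muscle-like cells 1.28 (95% interval 1.14 to 1.44). The first was 1.00 at a mitochondrial limit of 5%, 1.02 without library 3 and 1.88 without library 6. The second turns when 58 response pericytes holding 520 Fstl1 UMIs are set apart, as the other pericytes had 158 CPM and the smooth muscle-like subcluster 234. Astrocyte-like cells had 50.03 CPM and neuroblast-like cells 21.9, whereas endothelial-like cells had 3.36 and microglia-like cells 0.245. Pericyte-like cells of libraries 1 to 6 had 145, 170.0, 119, 379, 149.5 and 808 CPM, with libraries 4 and 6 above the others, and smooth muscle-like cells of libraries 3 to 6 had 161, 203, 158 and 358. The order of these classes was not the same in all libraries, as smooth muscle-like cells were higher than pericyte-like cells in libraries 3 and 5.

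Among the receptors, Tgfbr1 (ENSMUSG00000007613, chr4:47353222-47414931, plus strand), the type I receptor for TGF-β, was highest in microglia-like cells. They had 881 CPM (95% interval 872 to 889.8), and pericyte-like cells followed with 92.6 CPM, giving a ratio of 9.52 (95% interval 8.53 to 10.6), with microglia-like cells higher in 6 of 6 libraries. Microglia-like cells of libraries 1 to 6 had 980.4, 1312, 1081, 664, 1013 and 523 CPM, highest in library 2 and lowest in libraries 6 and 4. The highest was 2.51 times the lowest, a spread of at least 2 times that 47% of genes showed in this class. A Tgfbr1 UMI was found in 93.1% of microglia-like cells and 15.99% of oligodendrocyte-like cells, or 55.5% and 2.69% after thinning. Outside microglia-like cells Tgfbr1 was between 28.6 and 92.6 CPM in the classes of at least 50 cells. There were 4.601 Tgfbr1 UMIs per 100 UMIs of the 8 microglia markers in microglia-like cells and between 6.59 (pericyte-like) and 9.19 (neutrophil-like) in the 9 other classes for which this was computed. Pericytes outside the response and mixed subclusters had 22.7, and response pericytes 114 from 16 Tgfbr1 UMIs. Endothelial-like cells outside the arterial-like, venous-like and mixed subclusters had 28.4. The part of carried microglial RNA in these values was not tested. Pericyte-like cells held 326 Tgfbr1 UMIs and smooth muscle-like cells 85, and of both together 267 lay in mural subcluster 7, whose 47 cells carried microglial markers and of which 57.4% were called doublets. Without the unnamed and mixed mural subclusters, the microglia- to pericyte-like ratio was 26.9. That ratio is not a lead over the next class. Pericytes outside the response and mixed subclusters had 29.7 CPM, below perivascular macrophage-like (85.2) and neutrophil-like cells (85.0).

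Tgfbr2 (ENSMUSG00000032440, chr9:116084293-116175360, minus strand), the type II receptor that binds TGF-β before Tgfbr1 joins, was shared between microglia-like cells, at 234 CPM (95% interval 229 to 238), and endothelial-like cells, at 222 CPM (95% interval 213 to 230.2). Their ratio was 1.05 (95% interval 1.01 to 1.10), and the order did not hold by library: in libraries 1 to 6 microglia-like cells had 144, 190.1, 250.3, 245, 230.0 and 201 CPM and endothelial-like cells 151, 176, 304, 318, 161 and 147, so that each class was higher in 3 libraries, and the pooled ratio was 0.976 without library 5 and 0.972 without library 6. Pericyte-like cells (89.2 CPM) and smooth muscle-like cells (60.7) were lower, and oligodendrocyte-like cells had 6.57 CPM. Per 100 microglia-marker UMIs, oligodendrocyte-like cells had 1.42 Tgfbr2 UMIs, near the 1.22 of microglia-like cells, while endothelial-like cells had 24.6.

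Acvrl1 (ENSMUSG00000000530, chr15:101128522-101145336, plus strand), the type I receptor of endothelial BMP signalling, was at 481 CPM (95% interval 469 to 493) in endothelial-like cells, and libraries 1 to 6 lay between 425 and 566 CPM, a ratio of highest to lowest of 1.33. The next class was neutrophil-like, with 44.0 CPM from 30 UMIs, 18 of them in library 6, so that the ratio of 10.9 (95% interval 7.65 to 16.2) became 6.26 without library 4 and 19.2 without library 6. Neutrophil-like cells also held endothelial markers at 797 CPM, with 5.51 Acvrl1 UMIs per 100 of the 8 markers against 2.38 in endothelial-like cells, and the part of carried RNA in their value was not tested. Microglia-like cells had 40.4 CPM (95% interval 38.5 to 42.3), at 140.4 UMIs per 100 endothelial-marker UMIs, and in libraries 1 to 6 18.5, 27.1, 32.8, 54.2, 25.9 and 53.0 CPM, highest in libraries 4 and 6. A UMI was seen in 81.0% of endothelial-like and 1.22% of oligodendrocyte-like cells, or 38.6% and 0.144% after thinning.

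Eng (ENSMUSG00000026814, chr2:32646595-32682669, plus strand), encoding the co-receptor endoglin, was likewise highest in endothelial-like cells, at 524 CPM (95% interval 511 to 537), and pericyte-like cells followed with 151 CPM (95% interval 139 to 165), a ratio of 3.46 (95% interval 3.17 to 3.79) with the same order in 6 of 6 libraries. Endothelial-like cells of libraries 1 to 6 had 629, 564, 508, 494, 487 and 566 CPM and pericyte-like cells 160.0, 134, 118, 161, 200.3 and 195, and these ranges did not overlap. In pericyte-like cells there were 23.2 Eng UMIs per 100 endothelial-marker UMIs, and 86.6 in the pericytes outside the response and mixed subclusters, against 2.59 in endothelial-like cells, and the part of carried endothelial RNA in the pericyte value was not tested. Microglia-like cells had 55.1 CPM and smooth muscle-like cells 46.2, the latter below pericyte-like cells in each of libraries 3 to 6.

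**Figure D2:**
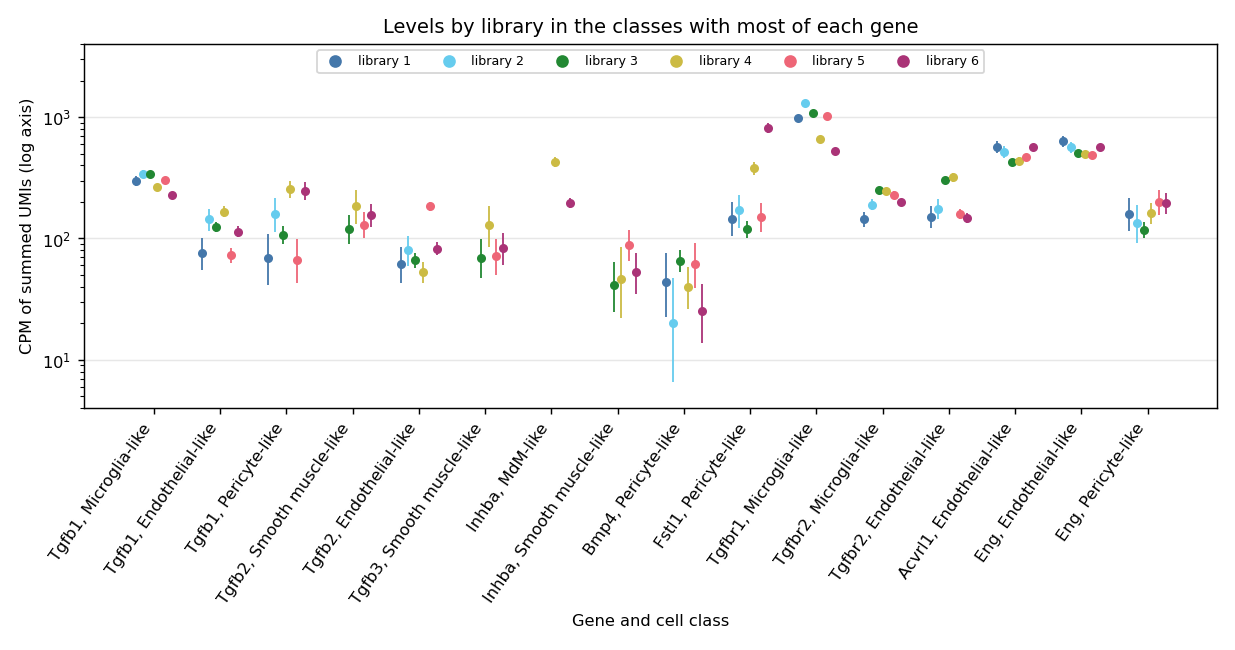
CPM (log axis) of selected genes and cell classes in each numbered library with at least 20 cells of the class. Points are libraries and bars exact 95% Poisson intervals. MdM is monocyte-derived macrophage. Acvrl1 and Eng in endothelial-like cells vary little between libraries, Fstl1 in pericyte-like cells runs from 119 to 808 CPM, and Tgfb2 in endothelial-like cells is highest in library 5.

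Microglia-like cells were next divided, because Tgfbr1 varied between libraries in them. Clustering these cells again without the members and pathway genes gave 4 subclusters named activated-like from marker genes (1642 cells, of which most were in libraries 4 and 6) and 6464 other cells. The activated-like name was weak for 673 cells, in subcluster 4, where 3 activated markers were raised, the fewest allowed for a name. Library 4 gave 92.6% of that subcluster. In subclusters 6 and 11 there were 4 raised, and in subcluster 8 there were 6. Tgfbr1 was lower in activated-like cells, 391 against 1058 CPM, a ratio of 0.369 (95% interval 0.358 to 0.381). Of the 5 members with at least 50 UMIs in this comparison, Tgfbr1 alone was at or under 1/2, against 9.83% of 11601 genes, and none was at least 2 times as high, against 7.5%. Within library 4 activated-like and other cells had 381 and 967 CPM, within library 6 362 and 1018, and within library 3, whose activated-like cells numbered 36, 1022 and 1082. The ratio was 0.394 (95% interval 0.376 to 0.413) in library 4, 0.355 (95% interval 0.332 to 0.381) in library 6 and 0.944 (95% interval 0.825 to 1.08) in library 3, where the states did not differ beyond counting error. In the other cells alone, libraries 1 to 6 had 981, 1322, 1082, 967, 1021 and 1018 CPM, with library 4 lowest. Between subclusters of the class, Tgfbr1 ranged from 185 CPM in activated-like subcluster 8 to 1526 in subcluster 9.

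The other members followed this division to different degrees. Tgfb1 was at 218 CPM in activated-like and 324 in other microglia-like cells, a ratio of 0.673 (95% interval 0.645 to 0.703), with 0.749 (95% interval 0.700 to 0.802) in library 4, 0.630 (95% interval 0.565 to 0.704) in library 6 and 1.04 (95% interval 0.820 to 1.30) in library 3. Eng was at 31.8 and 63.3 CPM, a ratio of 0.503 (95% interval 0.449 to 0.561), and was lower in activated-like cells in all 3 of these libraries. Tgfbr2 differed less, with a ratio of 0.899 (95% interval 0.860 to 0.941). Acvrl1 went the other way, with 60.5 against 33.0 CPM and a ratio of 1.83 (95% interval 1.67 to 2.02). Within libraries each ratio was under this pooled value. It was 1.09 (95% interval 0.470 to 2.17) in library 3, 1.56 (95% interval 1.34 to 1.83) in library 4 and 1.12 (95% interval 0.865 to 1.47) in library 6.

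**Figure D3:**
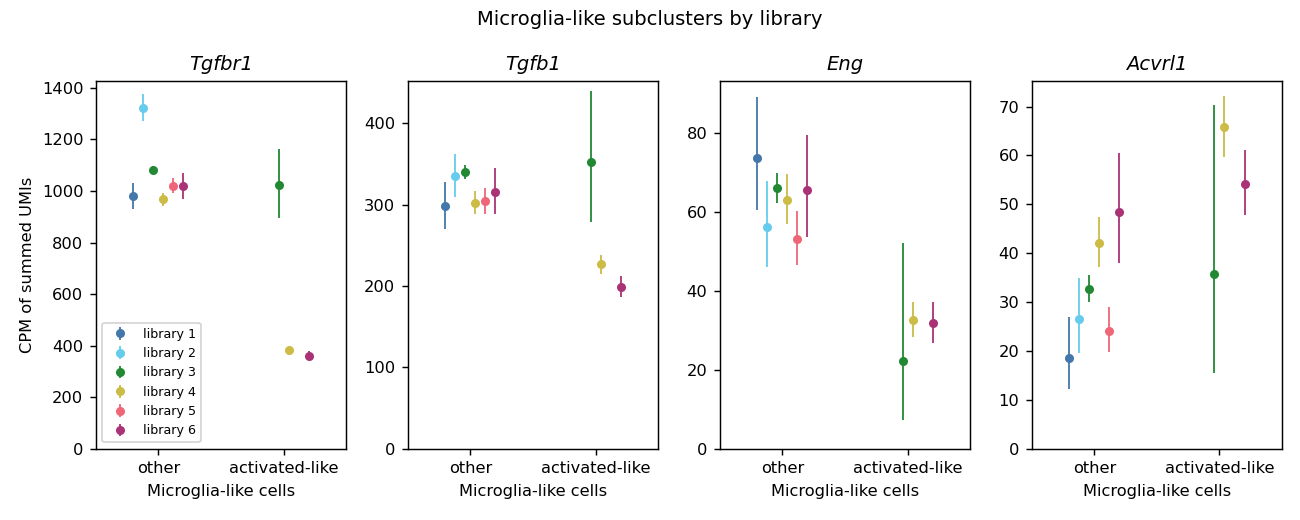
CPM of 4 genes in other and activated-like microglia-like cells, for each numbered library with at least 20 such cells. Points are libraries and bars exact 95% Poisson intervals. Tgfbr1 in activated-like cells of libraries 4 and 6 (381 and 362 CPM) lies under all other points, which start at 967.

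In endothelial-like cells Tgfb2 differed between subclusters named for vessel segments. Arterial-like subclusters (312 cells) had 214 CPM and venous-like subclusters (434 cells) 78.4, a ratio of 2.73 (95% interval 2.26 to 3.30). The venous-like name was weak for 338 of these cells, in subcluster 1, where 3 venous markers were raised, the fewest allowed for a name. The remaining 96 were in subcluster 9, where 6 were raised. Of the 6 members with at least 50 UMIs in this comparison Tgfb2 alone reached 2 times, against 4.13% of 7344 genes, and none was at or under 1/2, against 2.72%. Fstl1, with fewer UMIs, had 20 in arterial-like cells (12.4 CPM) and 3 in venous-like cells (1.38 CPM), a ratio of 8.93 (95% interval 2.65 to 46.9). Other endothelial-like cells had 0.977 CPM of Fstl1, an arterial-like to other ratio of 12.7 (95% interval 5.14 to 35.4). RNA outside cells had 11.1 CPM of Fstl1, and the part of carried RNA in the arterial-like level was not tested. In libraries 3, 4, 5 and 6, which had at least 20 cells of both kinds, arterial-like cells had 141, 108, 298 and 252 CPM of Tgfb2. Venous-like cells had 31.6, 24.3, 79.4 and 106 CPM of Tgfb2, so that arterial-like cells were higher in each. Other endothelial-like cells had 81.0 CPM, but 239.6 in library 5 and between 49.99 and 81.2 in the remaining libraries. Subclusters that stayed unnamed ran from 15.2 CPM (subcluster 2, 93.9% of its cells from library 6) to 226 (subcluster 3, 61.2% from library 5).

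The endothelial receptors were more even. Acvrl1 was at 527, 461 and 511 CPM in arterial-like, venous-like and other cells, and Eng at 573, 480.3 and 561. The arterial- to venous-like ratio was 1.14 (95% interval 1.04 to 1.25) for Acvrl1 and 1.19 (95% interval 1.09 to 1.31) for Eng, and for Eng it was 1.000 (95% interval 0.867 to 1.15) within library 5. Tgfbr2 had a ratio of 1.65 (95% interval 1.43 to 1.91), but the libraries themselves differed more, with 495, 338, 185 and 149.9 CPM in arterial-like cells of libraries 3 to 6. Within those libraries the Tgfbr2 ratio was 1.42, 0.996, 1.28 and 1.41, each under the pooled value. The interval left out 1 in library 3 alone (1.05 to 1.96). Tgfb1 was highest in unnamed subcluster 6, at 250.2 CPM, 86.7% of whose cells came from library 4. Endothelial subcluster 10, with 615 CPM of Tgfbr1, carried microglia markers and 60.7% called doublets, and in the other endothelial-like cells Tgfbr1 was at 21.1 CPM.

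**Figure D4:**
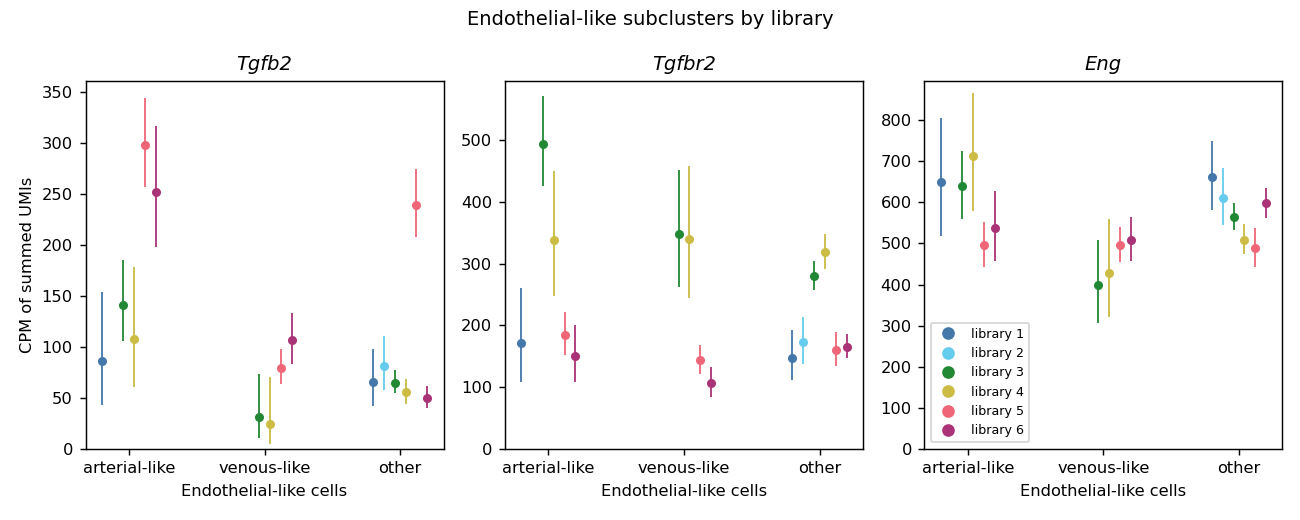
CPM of 3 genes in arterial-like, venous-like and other endothelial-like cells, for each numbered library with at least 20 such cells. Points are libraries and bars exact 95% Poisson intervals. Tgfb2 is higher in arterial-like than in venous-like cells in libraries 3 to 6, while in library 5 the other cells reach 239.6 CPM.

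Among mural cells, the pericyte-like subcluster with the highest mean of 5 response genes (Ccl7, Cxcl1, Mt1, Ccl11 and Cxcl2) held 58 cells, 25 in library 4 and 33 in library 6, and was set beside the 775 other pericytes. These others included mural subcluster 5, whose 82 cells had 1691 CPM of the smooth muscle marker Acta2, with a UMI in 42.7% of them. The rest of the other pericytes had at most 15.6 CPM of Acta2 in any subcluster. Mural subcluster 9 (34 cells, 0% called doublets) stayed unnamed and was on neither side. It was also left out of the pericytes outside the response and mixed subclusters given above. Its mean log2(CPM + 10) of the 5 response genes was 7.97, against 10.4 in the response subcluster. Fstl1 was at 374 CPM (95% interval 280 to 489) in it. Il11, a cytokine of the IL-6 family that was not used to choose the response subcluster but could shape the clusters, was at 4647 CPM in response pericytes and 3.05 in the others. Fstl1 was at 1638 and 158 CPM, a ratio of 10.4 (95% interval 9.11 to 11.9), with 6.18 (95% interval 4.596 to 8.36) within library 4 and 10.9 (95% interval 8.16 to 14.96) within library 6, and 6.80 over all libraries without library 6. The study had picked Fstl1 for this state on the same cells, so its value is not independent evidence. By RT-qPCR on separately sorted cells, the study found Fstl1 raised in pericytes of stroke animals from the ipsilateral and the contralateral hemisphere. It described its sequencing result for Fstl1 as only partly borne out. In other pericytes of libraries 1 to 6 Fstl1 was at 157, 177, 137, 170.3, 176 and 183 CPM. Library 6 was the highest, but at 183 CPM against 177 in the next library, and library 4 lay within the range of the others. This was unlike pericyte-like cells as a whole, where libraries 4 and 6 stood above the others. Tgfb1 was at 381 and 115 CPM, a ratio of 3.30 (95% interval 2.65 to 4.09), but other pericytes had 66.1, 168, 87.8, 209.9, 51.7 and 157 CPM in libraries 1 to 6, and the ratio was 1.499 (95% interval 0.998 to 2.21) within library 4 and 2.68 (95% interval 1.84 to 3.95) within library 6.

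Bmp4 was lower in response pericytes, with 5 UMIs (15.8 CPM) against 155 (59.0 CPM), a ratio of 0.267 (95% interval 0.0854 to 0.636) that was 0.646 (95% interval 0.162 to 1.90) within library 4 and 0.109 (95% interval 0.00257 to 0.728) within library 6, and 0.548 over all libraries without library 6. Of the 8 members with at least 50 UMIs in both states together, Fstl1 and Tgfb1 were at least 2 times as high in response pericytes, against 8.04% of 7091 genes, and Bmp4 was at or under 1/2, against 21.3%. Tgfbr2 had a ratio of 0.594 (95% interval 0.333 to 0.985), Tgfb2 0.752 (95% interval 0.334 to 1.49), Tgfbr1 1.697 (95% interval 0.925 to 2.93), Acvrl1 1.32 (95% interval 0.542 to 2.81) and Eng 1.19 (95% interval 0.883 to 1.59), and of these the interval of Tgfbr2 alone left out 1, although that ratio was 0.897 without library 6. Tgfb3 had 0 UMIs in response pericytes, which allows up to 9.45 CPM, against 4.95 CPM in the others, and Inhba had 1 UMI against 0.

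The smooth muscle-like subcluster (169 cells) differed from other pericytes in both directions. Inhba was at 74.6 CPM against 0 UMIs in 775 other pericytes, at least 65.3-fold higher when 3 counts over the other pericytes are taken as the floor, and the exact conditional interval, which also takes in the counting error of the subcluster, started at 52.1. Tgfb3 had a ratio of 21.4 (95% interval 12.1 to 41.2) and Tgfb2 of 4.43 (95% interval 3.48 to 5.69). Bmp4 had 0 UMIs in the subcluster, at least 25.1-fold lower than the 59.0 CPM of other pericytes by a floor of 3 counts over the subcluster, and the exact interval of the ratio reached up to 0.0496. Eng was at 28.3 against 145 CPM, and the ratio lay between 0.171 and 0.220 in libraries 3, 5 and 6. Fstl1 had a pooled ratio of 1.48 (95% interval 1.27 to 1.73) but 0.764 (95% interval 0.520 to 1.12) within library 5.

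**Figure D5:**
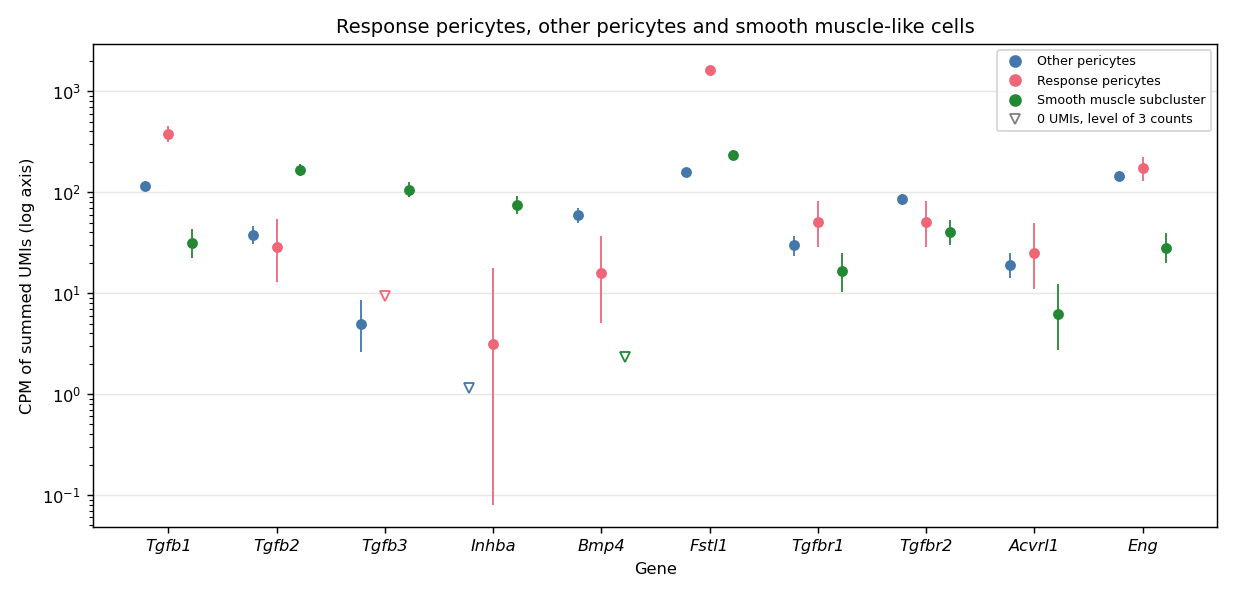
CPM (log axis) of the 10 genes in other pericytes, response pericytes and the smooth muscle-like subcluster, summed over libraries. Points are sums over cells, bars exact 95% Poisson intervals, and open triangles the level of 3 counts where no UMI was seen. Fstl1 is highest in response pericytes (1638 CPM), and Tgfb2, Tgfb3 and Inhba in smooth muscle-like cells.

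Other genes of the pathway were taken from 10 lists of 82 genes, of which 61 had at least 50 UMIs in the 12 classes. Astrocyte-like cells led 15 of these (24.6%, against 14.1% of all genes tested), microglia-like cells 13 (21.3%, against 11%) and endothelial-like cells 10 (16.4%, against 7.97%). Smooth muscle-like cells led 9 (14.8%, against 5.35%), pericyte-like cells 6 (9.84%, against 8.89%) and monocyte-derived macrophage-like cells 3 (4.92%, against 2.84%). Shares were under those of all genes for neuroblast-like cells, with 3 (4.92%, against 20.6%), and T lymphocyte-like cells, with 2 (3.28%, against 4.68%). Oligodendrocyte-, B lymphocyte-, neutrophil- and perivascular macrophage-like cells led 0, against 10.1%, 7.38%, 5.21% and 1.94%. Among TGF-β and activin class ligands, 6 of 10 had 50 UMIs. Nodal, a ligand best known from the early embryo, was at 202 CPM in pericyte-like and 2.23 in smooth muscle-like cells, and pericyte-like cells led in 6 of 6 libraries. Gdf15, a stress-induced ligand, was at 114 CPM in T lymphocyte-like, 107 in monocyte-derived macrophage-like and 85.6 in microglia-like cells. Most of the T lymphocyte-like value came from 1 cell with 46 UMIs, and the class led in 1 library. Its ratio to the macrophages was 1.07, with an interval of 0.79 to 1.42, so these classes did not differ beyond counting error. Gdf11 was at 27.8 CPM in astrocyte-like cells, and Lefty1, an antagonist of Nodal, at 22.9 CPM in microglia-like cells. Of 11 BMP and GDF class ligands 3 had 50 UMIs, and 5 had no UMI at all, among them Gdf2 and Bmp10, which encode the ligands of Acvrl1 and are made mainly outside the brain. Bmp5 was at 64.5 CPM in pericyte-like cells, Bmp2 at 55.7 CPM in smooth muscle-like and 55.004 in perivascular macrophage-like cells, and Bmp7 at 24.6 CPM in astrocyte-like cells, while Bmp6 was under 10 CPM in all 12 classes. These orders leave out the 31 fibroblast-like cells, where Bmp7 was at 344 CPM, Bmp6 at 111, Bmp2 at 75.9 and Lefty1 at 40.5. These levels were above each of the 12 classes, but no counting interval was computed for them. In the fibroblast-like cells 1 UMI was 5.06 CPM, so Bmp2 and Lefty1 rested on few UMIs.

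Of the other receptors, Bmpr2, the type II receptor that partners Acvrl1, was at 543 CPM in endothelial-like and 143 in pericyte-like cells. Bmpr1b, a type I BMP receptor, was at 124 CPM in astrocyte-like cells and 0.743 in neuroblast-like cells, the next class. Bmpr1a was at 111 CPM in smooth muscle-like cells, Acvr2b at 75.8 CPM in neuroblast-like cells, and the activin type II receptor Acvr2a was even between endothelial-like (16.9 CPM) and microglia-like cells (16.5). The type I receptor Acvr1 was even between microglia-like (33.4 CPM) and endothelial-like cells (33.1), and the activin type I receptor Acvr1b stayed under 10 CPM in all 12 classes. Among co-receptors, Rgma was at 139 CPM in astrocyte-like cells, Rgmb at 81.7 CPM in microglia-like cells, and Tgfbr3 (betaglycan) at 55.9 CPM in endothelial-like and 49.4 in pericyte-like cells. Bambi, a decoy receptor, was at 44.9 CPM in T lymphocyte-like and 41.0 in endothelial-like cells. In the fibroblast-like cells Tgfbr3 was at 152 CPM.

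Among genes that hold or open latent TGF-β, Thbs1, encoding thrombospondin-1, was at 2484 CPM in monocyte-derived macrophage-like and 1775 in neutrophil-like cells. Ltbp4, a latent TGF-β binding protein, was at 337 CPM in endothelial-like cells, Ltbp1 at 175 CPM in smooth muscle-like cells, and Itgav, the αv integrin subunit, at 239.8 CPM in astrocyte-like cells. Among extracellular inhibitors, Htra1, a secreted serine protease, was at 2568 CPM in astrocyte-like cells, Nbl1 at 837 CPM in pericyte-like cells, Chrdl1 at 84.0 CPM in astrocyte-like cells, and Twsg1 at 63.1 CPM in pericyte-like and 55.7 in smooth muscle-like cells, and at 111 CPM in fibroblast-like cells.

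Among the Smads, the inhibitory Smad7 was at 549.6 CPM in microglia-like and 487 in oligodendrocyte-like cells, Smad1 at 125 CPM in endothelial-like cells, Smad4 at 123 CPM in neuroblast-like cells and Smad2 at 53.3 CPM in microglia-like cells. Regulators led by microglia-like cells were Pmepa1 (759 CPM), Skil (431 CPM) and Ski (174 CPM), and Tgif1 was at 165 CPM in monocyte-derived macrophage-like cells. Of the genes known as targets, all 10 had 50 UMIs: Tgfbi was at 1976 CPM in monocyte-derived macrophage-like cells, Id3 at 1656 CPM in smooth muscle-like and 1164 in endothelial-like cells (and 1684 in fibroblast-like cells), Id1 at 1132 CPM in endothelial-like cells and Id2 at 1124 CPM in astrocyte-like cells. Levels of pathway genes describe RNA and not whether the pathway was active.

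For each member, the genes with the most similar profile were found by Pearson correlation of log2(CPM + 10) over the 12 classes, which share the same libraries. Bmp4 was closest to Kcnj8 (r = 0.983), a pericyte potassium channel subunit, followed by Fhl2 (r = 0.978) and Cysltr2 (r = 0.967). Tgfbr1 was closest to Ptgs1 (r = 0.972) and had Gpr34, a microglial receptor, at r = 0.969. Kcnj8 and Gpr34 were also in the marker lists used to name the classes, so these matches are not independent of the naming. Eng was closest to Tmem204 (r = 0.953) and Calcrl (r = 0.941), both at their highest in endothelial-like cells, Fstl1 to Evc (r = 0.992), Arhgef25 (r = 0.990) and Triqk (r = 0.989), Tgfb2 to Syn3 (r = 0.990) and Tgfb3 to Thsd4 (r = 0.959). The closest genes of Inhba, led by Gm13986 (r = 0.916), were themselves under 21 CPM in their leading class. Other matches were low as well, with Evc at 16.2 CPM, Fhl2 at 33.2 and Triqk at 36.1 in their leading classes.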

How the data were processed

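The authors deposited UMI counts per gene and barcode for 6 libraries, unfiltered and as whole numbers, using Cell Ranger 5.0.1, whose aggr step equalised depth (per the file header and the submitters' processing notes, which name build mm10). The barcodes carry a library number from 1 to 6 that names no sample label, so no library was put in a group and no condition was compared. The study's methods give 3 mice for the 6 libraries, so libraries share animals, and name the v3.1 kit throughout, unlike the labels, with another sequencer for the 24 h libraries.

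Barcodes were called as cells per library when they reached 0.1 of the 99th percentile of the 3000 deepest. A minimum of 200 features and a maximum of 10% mitochondrial UMIs were required, as in the study, and 34 cells over 1% hemoglobin, a limit chosen after the clusters were seen, were left out. This kept 17323 of 18468 called cells. Library totals were 12427757 to 40793772 UMIs. Doublets were called by simulation (0.261% to 2.85% of a library) and kept. Counts were scaled to 10000, and 2000 variable genes without the members and pathway lists, 30 principal components, 20 neighbours and the Leiden algorithm at resolution 0.8 gave the clusters (leidenalg 0.10.2, igraph 0.11.9). Clusters were named from marker lists.

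Values are CPM of summed UMIs with exact Poisson intervals. Ratios have exact conditional intervals and are written with at least 50 UMIs when set against all genes. With 1 sample per group there was no test. Steps were tested on simulated data (scipy 1.17.1, numpy 2.4.6). Shares of cells were also computed after thinning to 1000 UMIs. Positions are those of GENCODE vM21 on GRCm38. Named pathway genes are the up to 4 highest of each list, and similar genes the 3 highest by correlation for each member. The members, gene lists and comparisons were chosen with earlier results of these data known. Alternatives changed the cell call, doublets, the mitochondrial limit, variable genes, resolution, summing, depth and components, and left out each library. Leaving out shared barcodes or mixed mural subclusters was chosen after seeing the data.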

Additional observations from a re-analysis of the deposited data

How the results depend on the processing

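With the processing changed, 237 values moved by less than their counting error and 21 by more. For Tgfbr1, the microglia- to pericyte-like ratio of 9.52 was 17.7 without called doublets, 16.3 when each cell's own CPM was averaged, 13.1 with the mean of the libraries' CPM, 15.9 with cells thinned to 1000 UMIs and 26.9 without the unnamed and mixed mural subclusters, which was chosen after seeing the data, and its highest to lowest library ratio of 2.51 was 2.27 with the cells' own CPM. The Acvrl1 endothelial- to neutrophil-like ratio of 10.9 was 18.0 at a mitochondrial limit of 5%, 19.2 with the cells' own CPM and 17.8 after thinning, and its library ratio of 1.33 was 1.64 after thinning. The Inhba macrophage- to smooth muscle-like ratio of 4.51 was 5.92 at the 5% limit and 6.18 after thinning, and its library ratio of 2.19 was 1.54 with the cells' own CPM and 1.64 after thinning. After thinning, the leading ratio was 6.13 for Bmp4 (main 2.57), 1.10 for Tgfb1 (1.01), 1.14 for Tgfb2 (1.46) and 5.28 for Tgfb3 (8.20), and the Eng response ratio was 0.813 (1.19). Fstl1 fibroblast- to pericyte-like cells gave 1.00 at the 5% limit (1.32), and Tgfbr2 microglia- to endothelial-like cells 1.00 with the mean of the libraries' CPM (1.05). The causes were not tested, except that leaving out the mixed mural subclusters removes cells with microglial markers.

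With each library left out, the Tgfbr2 microglia- to endothelial-like ratio ran from 0.972 to 1.16 and turned below 1 at 0.976 without library 5 and 0.972 without library 6. Leading-class ratios ran from 6.26 to 19.2 for Acvrl1, 1.54 to 4.03 for Bmp4, 3.05 to 3.67 for Eng, 1.02 to 1.88 for Fstl1, 3.09 to 6.40 for Inhba, 0.896 to 1.11 for Tgfb1, 1.28 to 2.08 for Tgfb2, 7.90 to 8.52 for Tgfb3 and 8.79 to 11.4 for Tgfbr1. Response to other pericyte ratios ran from 6.80 to 12.9 for Fstl1, 2.80 to 4.35 for Tgfb1, 0.253 to 0.548 for Bmp4, 0.439 to 0.897 for Tgfbr2, 0.590 to 0.977 for Tgfb2, 1.64 to 2.33 for Tgfbr1, 1.27 to 1.40 for Acvrl1 and 1.09 to 1.35 for Eng. Library ratios ran from 1.98 to 2.51 for Tgfbr1, 1.32 to 1.74 for Tgfbr2, 1.16 to 1.29 for Eng, 1.31 to 1.54 for Tgfb2 and 1.19 to 1.85 for Tgfb3.

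No paired analysis was possible because each group had 1 library and the library numbers name no group. Library, group, kit, sequencer and animal cannot be told apart here, and intervals leave out the spread between animals. Bmp4, Tgfb3 and Inhba rest on few UMIs, and fibroblast-like cells on 31 cells.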
